A study of Mus musculus with 6 samples.

Results

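The serum amyloid A genes Saa1, Saa2, Saa3 and Saa4 were followed across 6 mouse livers by RNA sequencing. They were found by Ensembl gene ID, and all 4 had a row among the 37991 gene rows of each library. The IDs were ENSMUSG00000074115 for Saa1, ENSMUSG00000057465 for Saa2, ENSMUSG00000040026 for Saa3 and ENSMUSG00000040017 for Saa4. The livers came from mice of the FVB strain aged 84 days. In 3 of them the Ing5 genotype was +/+ (WT), and 3 were heterozygous, MommeD48/+ (Het). Alleles named MommeD were isolated in a mouse screen for modifiers of transgene silencing, and Ing5 encodes a PHD-finger subunit of histone acetyltransferase complexes. The labels do not say whether the livers carried the transgene of that screen, nor what treatment they had, nor that each library came from a separate mouse. P-values therefore refer to variation among these libraries, part of which may be technical.

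Serum amyloid A proteins are small apolipoproteins that travel on high-density lipoprotein and bind retinol. In the mouse, Saa1 and Saa2 are the main acute-phase forms: hepatocytes raise them steeply when interleukin 6, interleukin 1 and tumour necrosis factor signal through STAT3, NF-kB and C/EBP factors. Saa4 is known as the constitutive liver form. Saa3 is known for expression outside hepatocytes, in macrophages and fat, as well as for its own acute-phase response.

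Libraries held between 19840541 and 22041117 counts, over 16323 to 16597 detected genes. A gene at 0 may still have up to 3 counts, or 0.136 to 0.151 CPM (a count relative to the total of its library), and this limit and the intervals below cover counting error only. Hepatocyte markers summed to 86467 to 100771 CPM in WT and 88676 to 107070 CPM in Het, with all 9 of 9 detected in every library labelled liver. Ing5, the gene of the MommeD48 allele, had 182, 228 and 191 counts in WT replicates 1 to 3 and 193, 217 and 180 in Het replicates 1 to 3. Its level did not separate the genotypes (log2 fold change -0.05, SE 0.11, exact two-sided permutation p = 0.8).

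The 250 bases before each gene's start are shown as a description of the genes. Saa1 and Saa2 differ little there, while Saa3 and Saa4 differ from both. Whether these bases bear on the levels below was not tested. The sequences are from RefSeq, build GRCm38.p6, for all 4 members, written 5′ to 3′ in the direction of the gene, and the capitals mark matches to the C/EBP letters TTNNGNAA on either strand.
Saa1, chr7:46742981-46743230, minus strand: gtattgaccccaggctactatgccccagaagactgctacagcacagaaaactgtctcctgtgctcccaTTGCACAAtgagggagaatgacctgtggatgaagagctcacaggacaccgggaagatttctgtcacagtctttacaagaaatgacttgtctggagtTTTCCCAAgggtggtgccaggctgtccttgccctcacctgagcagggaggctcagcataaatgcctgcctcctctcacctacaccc
Saa2, chr7:46751583-46751832, plus strand: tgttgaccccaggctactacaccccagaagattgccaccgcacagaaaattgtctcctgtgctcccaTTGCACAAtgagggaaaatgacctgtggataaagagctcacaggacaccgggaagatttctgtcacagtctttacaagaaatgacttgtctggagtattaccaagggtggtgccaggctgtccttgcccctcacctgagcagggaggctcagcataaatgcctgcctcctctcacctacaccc
Saa3, chr7:46715677-46715926, minus strand: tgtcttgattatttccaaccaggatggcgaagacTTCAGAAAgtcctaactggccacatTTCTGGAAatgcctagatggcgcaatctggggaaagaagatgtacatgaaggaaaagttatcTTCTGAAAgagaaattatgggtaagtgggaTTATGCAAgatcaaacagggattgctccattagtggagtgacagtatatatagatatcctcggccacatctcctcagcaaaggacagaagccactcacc
Saa4, chr7:46732604-46732853, minus strand: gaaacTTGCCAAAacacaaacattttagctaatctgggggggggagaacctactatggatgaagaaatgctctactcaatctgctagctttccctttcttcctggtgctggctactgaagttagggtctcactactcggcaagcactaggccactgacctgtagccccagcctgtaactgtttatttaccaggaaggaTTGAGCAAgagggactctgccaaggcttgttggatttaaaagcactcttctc
The Saa1 and Saa2 windows were identical at 95.6% of 249 aligned bases, with 11 mismatches and 2 gap letters. Saa1 and Saa3 were identical at 64.4% of 216 aligned bases, and Saa1 and Saa4 at 62.9% of 202. The C/EBP letters occurred in 4 of 4 Saa windows and in 36.8% of 32851 promoter windows of the same length. In Saa1 they began 182 and 86 bases before the start, and in Saa2 at 183 bases only. Saa3 held 4 such matches and Saa4 held 2. The STAT letters TTCNNNGAA were in 7.02% of all windows, the TATA box letters TATAAA in 12.4% and the NF-kB consensus in 7.25%. None of these 3 was found in a Saa window, each searched on both strands, and no match says only that these letters are not in these windows.

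Coding sequences had 369 bases in Saa1, Saa2 and Saa3 and 393 in Saa4, for proteins of 122 and 130 residues. Saa1 and Saa2 coding sequences were identical at 95.1% of 369 bases, Saa1 and Saa3 at 79.2% of 361 aligned bases, and Saa1 and Saa4 at 69.8% of 368. Over whole transcripts Saa1 was identical to Saa2 at 94.4% of aligned bases, to Saa3 at 76.3% and to Saa4 at 76.8%. These alignments held 3, 124 and 1487 gap letters in that order, which the percentages leave out. With so many gaps, the Saa4 value does not rank Saa4 as closer to Saa1 than Saa3 is. Of all stretches of 50 bases in the Saa1 transcript, 13.2% also occurred without a mismatch in Saa2, 1.61% in Saa3 and 0% in Saa4. At 75 bases the share with Saa2 was 4.67%, and at 100 bases it was 0%. How reads matching both genes were counted, and the read length, are not given in the sources used here, so the split between Saa1 and Saa2 is uncertain, and their sum is given as well. RefSeq lists each of these 2 symbols as an older name of the other.

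Saa1 and Saa2 differed between livers of the same genotype by more than 30-fold, and they were high in the same 3 livers. Saa1 stood at 1381, 4300 and 31.2 normalised CPM in WT replicates 1, 2 and 3, and at 753, 44.8 and 24.0 in Het replicates 1, 2 and 3. WT replicates 1 and 2 and Het replicate 1 were high, the other 3 livers were low, and the genotypes overlapped. The highest liver was 179-fold above the lowest, with 138-fold within WT and 31.4-fold within Het. Group means were 1904 ± 2182 CPM in WT and 274 ± 415 in Het (SD, n = 3). The fitted log2 fold change, Het over WT, was -2.80 (SE 2.27, 95% interval -8.97 to 3.38), with an edgeR Benjamini-Hochberg adjusted p of 0.9998. Saa1 therefore did not pass the test (exact two-sided permutation p = 0.3, where 0.1 is the smallest that 3 against 3 allows).

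Saa2, the near copy of Saa1, followed it liver by liver. Its levels were 657, 2785 and 5.24 CPM in WT replicates 1 to 3 and 323, 8.05 and 4.24 in Het replicates 1 to 3. The same 3 livers were high and the genotypes overlapped again. Its range was wider, 656-fold over all livers, 531-fold within WT and 76.1-fold within Het. The means were 1149 ± 1454 CPM in WT and 112 ± 183 in Het (SD, n = 3). Het over WT, its log2 fold change came to -3.36 (SE 2.76, 95% interval -10.89 to 4.16, edgeR adjusted p 0.9998, exact permutation p = 0.3). Without WT replicate 2 the log2 fold changes were -1.37 for Saa1 and -1.57 for Saa2, and without Het replicate 1 they were -5.79 and -7.54, with neither gene past the threshold.

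Together Saa1 and Saa2 took 0.203%, 0.708% and 0.00358% of all counts in WT replicates 1 to 3 and 0.105%, 0.00541% and 0.00289% in Het replicates 1 to 3. The 95% Wilson intervals, which cover counting error within a library and not the spread between livers, were for example 0.705% to 0.712% in WT replicate 2 and 0.00266% to 0.00314% in Het replicate 3. In bulk tissue, fewer cells of a type and less RNA per cell cannot be told apart.

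Saa4 varied much less and was never low. It measured 834, 1034 and 438 CPM in WT replicates 1 to 3 and 404, 448 and 440 in Het replicates 1 to 3. WT replicates 1 and 2 stood above the rest, whereas Het replicate 1, high for Saa1 and Saa2, had the lowest Saa4 of the 6. WT replicate 3 lay inside the Het range, so the genotypes overlapped. The means were 769 ± 303 CPM in WT and 431 ± 23.2 in Het (SD, n = 3). The fit put the log2 fold change at -0.84 (SE 0.29, 95% interval -1.51 to -0.16), with an unadjusted p of 0.0225 and an edgeR adjusted p of 0.9998 over 12631 genes (exact permutation p = 0.3). Saa4 did not pass, but did without WT replicate 3, where the log2 fold change was -1.12 and the edgeR adjusted p 0.023. In that setting 17 of 12801 genes passed, and the library left out was the WT library inside the Het range. The unadjusted edgeR p rose to 0.0573 without WT replicate 1, 0.0615 without WT replicate 2, 0.0699 without Het replicate 1 and 0.061 with no low-count filter, each with a 95% interval that included 0.

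Saa3 was the scarcest member and stood apart in 1 liver. Its counts were 109, 550 and 33 in WT replicates 1 to 3 and 93, 105 and 70 in Het replicates 1 to 3, or 5.25, 24.95 and 1.70 CPM and 4.45, 4.83 and 3.41 CPM. Only WT replicate 2 was high, WT replicate 3 was lowest, and all Het livers lay between them. WT replicate 1 and Het replicate 1, high for Saa1 and Saa2, had Saa3 levels like Het replicate 2, which was low for both. The means were 10.6 ± 12.5 CPM in WT and 4.23 ± 0.732 in Het (SD, n = 3). Its fitted log2 fold change stood at -1.34 (SE 1.05, 95% interval -4.15 to 1.47, edgeR adjusted p 0.9998, exact permutation p = 0.7). It turned to 0.28 without WT replicate 2.

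**Figure D1:**
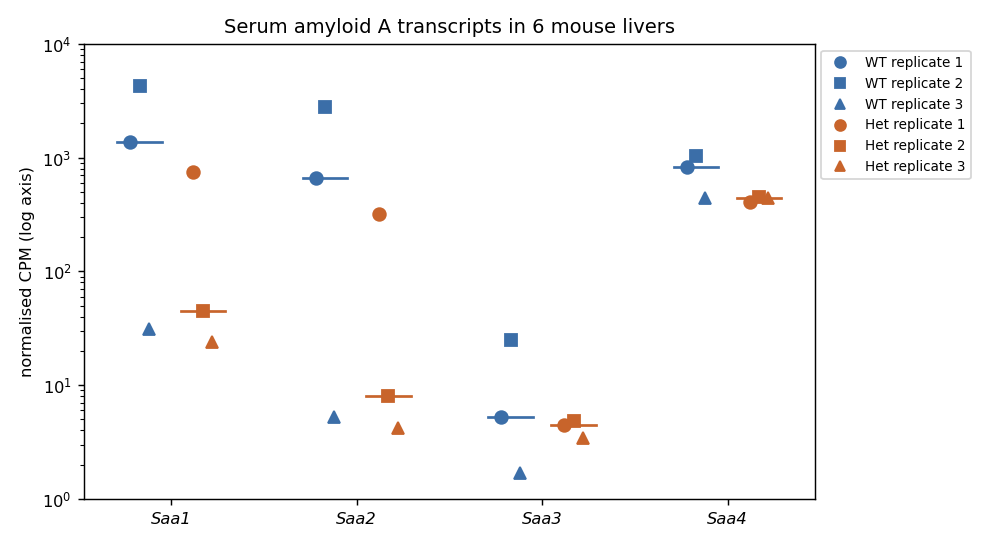
Normalised CPM of the 4 Saa genes in each liver on a log axis; points are single livers (WT blue, Het orange, shape gives the replicate) and lines mark group medians. Saa1 and Saa2 span 179-fold and 656-fold, Saa3 stands out in WT replicate 2, and Saa4 stays between 404 and 1034 CPM.

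Markers of the other cells known to express Saa3 were examined beside it. Kupffer cell and macrophage markers, all 11 of 11 detected in every library, summed to 281, 270 and 156 CPM in WT replicates 1 to 3 and 221, 303 and 173 in Het replicates 1 to 3. Their highest sum was in Het replicate 2, not in the liver with the highest Saa3, and their lowest was in WT replicate 3, where Saa3 was also lowest. Adipocyte markers summed to 4.57 to 11.3 CPM in WT and 3.31 to 8.70 in Het, with the highest sum in WT replicate 2. The defining fat markers Adipoq, Lep, Plin1, Cfd and Retn were each at 0 in at least 1 library and reached at most 0.136 CPM, and the rest of the sum was Plin4 and Cidec. Neutrophil markers summed to 0.822 to 2.40 CPM in WT and 0.920 to 1.63 in Het, with Ly6g at 0 in all libraries. The part of these cells in the Saa3 values was not tested.

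Against the whole table, the genotype comparison gave no calls: 0 of 12631 genes (0%) had an edgeR adjusted p under 0.05, 547 had an unadjusted p under 0.05 and the smallest adjusted p was 0.529. DESeq2 called 13 genes and limma-voom 0, with no Saa gene among them. Of the 4 Saa genes, only Saa4 had an unadjusted p under 0.05 and a lower level in Het, against 2.21% of all genes, and none had one with a higher level, against 2.12%. Fitted levels were lower in Het by more than 2-fold for Saa1, Saa2 and Saa3, against 0.412% of all genes. Saa3 was past that fold through WT replicate 2: its log2 fold change was 0.28 without that library, and with all libraries it was -0.59 in limma-voom. None of the 4 had all Het values on 1 side of all WT values, whereas 8.99% of all genes did.

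**Figure D2:**
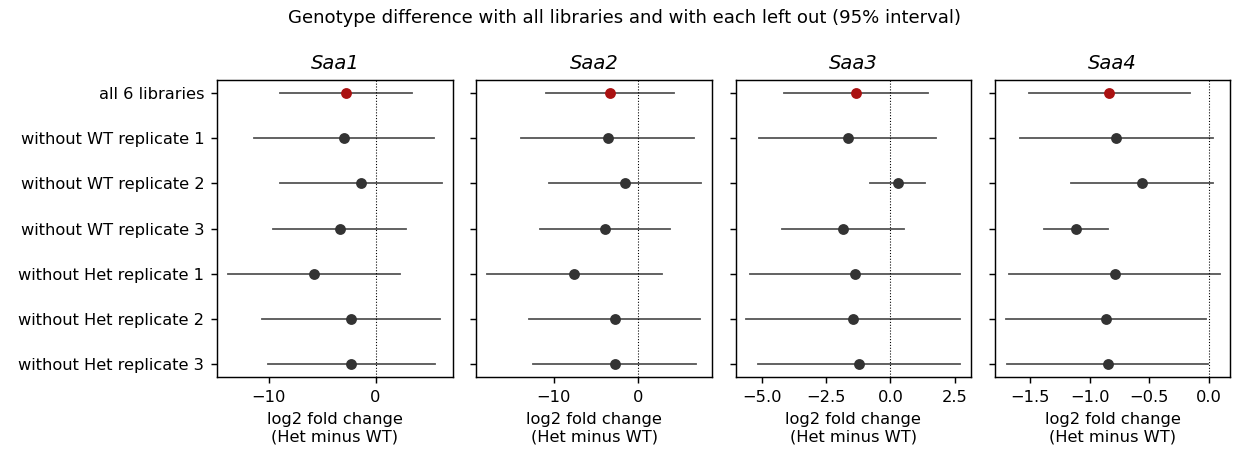
Fitted log2 fold change, Het over WT, of each Saa gene (points) with its 95% interval (lines), with all 6 libraries in red and with each library left out in black; the horizontal scale differs between genes. Intervals for Saa1, Saa2 and Saa3 include 0 in every row, and Saa3 moves to 0.28 without WT replicate 2.

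The spread within genotypes placed the members at different points among all genes. The SD of log2 CPM within genotypes was 4.10 for Saa2, rank 1 of 12631 genes, and 3.23 for Saa1, rank 3. Lcn2, an acute-phase lipocalin, lay between them, and Orm2, an acute-phase glycoprotein, was at rank 5. Saa3 had an SD of 1.36, rank 21, and Saa4 an SD of 0.459, rank 835, with 6.60% of genes above it. The median of all genes was 0.154, so even the constitutive member was above it on this scale, which pools both genotypes. The Saa4 spread lay in WT, with a range of 2.36-fold against 1.11-fold in Het. Saa3 likewise ranged 14.7-fold in WT, through WT replicate 2, and 1.41-fold in Het. These ranks are a description with no test.

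**Figure D3:**
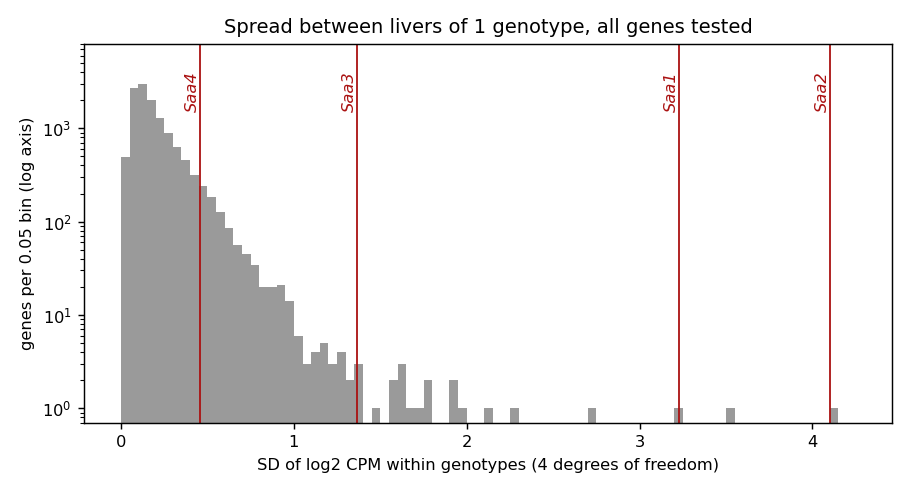
Histogram of the SD of log2 CPM within genotypes for the 12631 genes tested, with the number of genes per bin on a log axis and red lines at the Saa genes. Saa2 is the highest value at 4.10 and Saa1 is at 3.23, whereas Saa4, at 0.459, lies in the upper flank of the main body.

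Ratios between members compare induced with constitutive forms inside a library, free of library scaling. The ratio of Saa1 plus Saa2 counts to Saa4 counts was 2.44, 6.85 and 0.0833 in WT replicates 1 to 3 and 2.66, 0.118 and 0.0642 in Het replicates 1 to 3. In 3 livers the induced pair outnumbered Saa4, and in the other 3 Saa4 outnumbered the pair. On the log2 scale the ratio averaged 0.16 ± 3.33 in WT and -1.88 ± 2.88 in Het (SD, n = 3), a difference of -2.04 with an exact two-sided permutation p = 0.5. The difference was -0.73 without WT replicate 2, -0.996 without Het replicate 3, -3.91 without WT replicate 3 and -3.68 without Het replicate 1.

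The balance of Saa1 and Saa2 also changed with their level. The Saa1 to Saa2 ratio of counts was 2.10, 1.54 and 5.96 in WT replicates 1 to 3 and 2.33, 5.57 and 5.66 in Het replicates 1 to 3. The livers with high levels had the lower ratios, and a step of 1 in log2 Saa1 went with a step of 1.27 in log2 Saa2. Its log2 mean was 1.42 ± 1.02 in WT and 2.06 ± 0.73 in Het (SD, n = 3), a difference of 0.64 (exact permutation p = 0.4) that was 1.21 without WT replicate 3, 1.06 without Het replicate 1, 0.24 without WT replicate 2 and 0.42 without Het replicate 3. Reads shared by the 2 genes would enter this ratio, and their part was not tested. The counts of Saa1 plus Saa2 were 389, 284 and 21.5 times those of Saa3 in WT replicates 1 to 3 and 242, 10.95 and 8.27 times in Het replicates 1 to 3. Saa3 thus did not keep pace with the induced pair in any of the 3 livers where the pair was high. The log2 ratio of Saa3 to the pair differed by 2.25 between genotypes (exact permutation p = 0.2), and by 3.81 without Het replicate 1, 3.57 without WT replicate 3, 1.48 without WT replicate 1 and 1.37 without Het replicate 3.

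**Figure D4:**
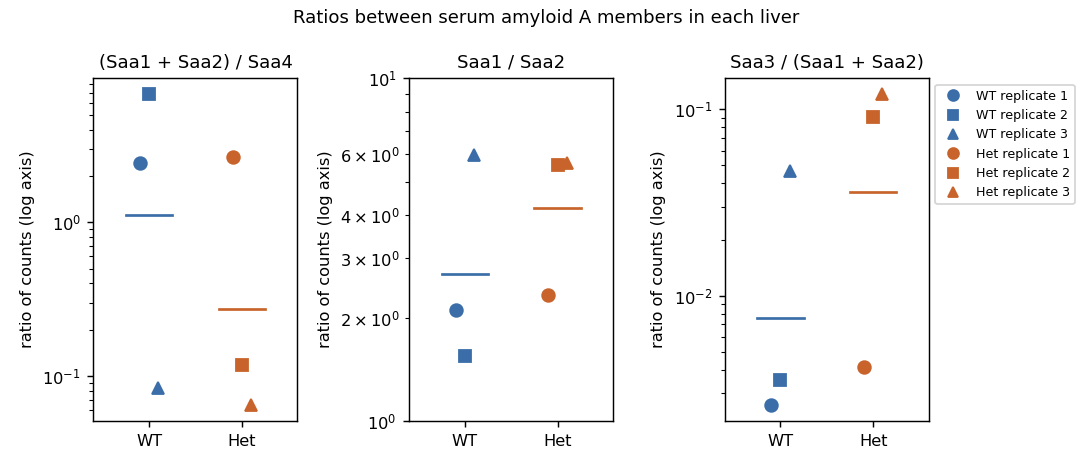
Ratios of counts between Saa genes in each liver on log axes; points are livers (WT blue, Het orange, shape gives the replicate) and lines are geometric means. The ratio of Saa1 plus Saa2 to Saa4 runs from 0.0642 to 6.85 and the Saa1 to Saa2 ratio from 1.54 to 5.96, with both genotypes on either side.

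Levels of different genes were compared per length. Per kilobase of coding sequence, the order in WT replicate 2 was Saa1, Saa2, Saa4 and Saa3, at 11652, 7546, 2631 and 67.6 CPM per kb. In WT replicate 1 and Het replicate 1 Saa4 came second, at 2122 and 1029 CPM per kb, ahead of Saa2 at 1780 and 876. In WT replicate 3, Het replicate 2 and Het replicate 3, Saa4 came first, at 1115, 1141 and 1119 CPM per kb, ahead of Saa1 at 84.7, 122 and 65.0. The Saa4 transcript is long, 2094 bases against 609 for Saa1, so a second scale, per kilobase of principal transcript, was added after the data were seen. On it Saa2 exceeded Saa4 in 3 livers rather than 1, since it stood at 1084 and 533 CPM per kb in WT replicate 1 and Het replicate 1 against 398 and 193 for Saa4. Saa3 was last in every liver on both scales.

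Across the 6 livers log2 CPM of Saa1 and Saa2 had a Pearson correlation of 0.9998, and the other 5 pairs lay between 0.78 and 0.79. Within genotypes the values were 0.9998 for Saa1 and Saa2, 0.91 for Saa3 and Saa4, and 0.74 to 0.78 for the other pairs. Reads shared by Saa1 and Saa2 would enter their correlation, and the part of such reads was not tested. Saa1 and Saa2 were high in 3 livers and low in 3, and Saa3 stood apart in 1, so few livers set these values, which are given as a description. The genes most like Saa1 were Abcb4, the canalicular phospholipid transporter, at 0.997, and then Qsox1, Tmem38b, Pcsk6 and Cpb2. The same 5 genes led for Saa2, in another order, with Tmem38b first. The ranges of these 5 genes over the livers ran from 1.31-fold for Tmem38b to 1.81-fold for Qsox1. Abcb4 was 291, 317 and 233 CPM in WT replicates 1 to 3 and 284, 236 and 223 in Het replicates 1 to 3, a range of 1.43-fold. For Saa3 they included Zfp940, Nrip1, Crk and Caskin2, with Zfp940 at 0.990, and for Saa4 Jmjd4, Tbc1d24, Cpeb3, Cyp3a13 and Arpin, with Jmjd4 at 0.987. Correlations above 0.95 were found for 89, 86, 42 and 50 of 11636 genes with Saa1, Saa2, Saa3 and Saa4.

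Receptors and transcription factors of the pathway that induces Saa genes gave no call between genotypes. Of 29 members tested, 15 were lower and 14 higher in Het, 0 passed the adjusted test, and the median log2 fold change was -0.0076, against 0.00088 for all genes. Tnfrsf1a, a tumour necrosis factor receptor, had a log2 fold change of -0.22 in the edgeR fit (unadjusted edgeR p 0.0366), against a background of 2.21% of genes lower in Het at an unadjusted p under 0.05. The most abundant members were Hnf4a, at 584 ± 111 CPM in WT and 568 ± 37.9 in Het, Cebpa, at 326 ± 47.6 and 360 ± 4.70, and Il1rap, at 221 ± 14.8 and 236 ± 15.2 (SD, n = 3). Without WT replicate 3, 3 members passed with lower levels in Het: Stat3 at -0.72, Il1r1 at -0.88 and Il6ra at -0.58 (edgeR adjusted p 0.0296, 0.0342 and 0.0342), named after their values were seen. In that setting 17 of 12801 genes passed, 14 of them lower in Het. The library left out had the lowest level of each of these 3 members. Stat3, which carries the interleukin 6 signal, stood at 127, 151 and 70.3 CPM in WT replicates 1 to 3 and at 84.5, 82.3 and 86.1 in Het replicates 1 to 3, so only WT replicates 1 and 2 were above the others.

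The proteins that Saa meets on lipoprotein and at the cell surface gave no call either. Of 18 high-density lipoprotein and retinol genes tested of 20 listed, with Cetp and Stra6 not tested, 6 were lower and 12 higher in Het, 0 passed and the median log2 fold change was 0.04. Without Het replicate 1, 11 were lower. Apoa1, the main protein of high-density lipoprotein, was at 6255 ± 440 CPM in WT and 7268 ± 286 in Het, Apoe at 9708 ± 1217 and 9513 ± 485, and Apoa2 at 4277 ± 667 and 3865 ± 150 (SD, n = 3). Of 16 receptor and clearance genes tested of 17 listed, with Ager not tested, 11 were lower, 0 passed and the median was -0.06, and 7 were lower without Het replicate 3. The cathepsins Ctsb and Ctsd were at 489 ± 16.7 and 302 ± 29.4 CPM in WT and 467 ± 51.0 and 260 ± 38.8 in Het. Apcs, the pentraxin serum amyloid P, varied with the liver: 209, 524 and 117 CPM in WT replicates 1 to 3 and 480, 105 and 130 in Het replicates 1 to 3, high in the 3 livers that were high for Saa1.

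Other acute-phase genes were described beside the Saa genes. Of 28 positive acute-phase genes other than Saa, 25 were lower in Het, against 49.7% of all genes, 0 passed the adjusted test and 0 had an unadjusted p under 0.05. Their median log2 fold change was -0.51, and -0.07 with 17 lower once WT replicate 2 was left out. Without WT replicate 3 it was -0.77, and 13 of the 28 then had an unadjusted edgeR p under 0.05, against 1384 of 12801 genes. With Het replicate 1 left out, such a p was found for 3 of the 28, against 937 of 12779 genes. In either setting 0 of the 28 were past the adjusted test. C3, the central complement protein, was at 7467, 10472 and 5229 CPM in WT replicates 1 to 3 and 7325, 6246 and 5715 in Het replicates 1 to 3. Lcn2 ranged more widely than Saa1, at 64.6, 323 and 2.36 CPM in WT replicates 1 to 3 and 92.4, 1.89 and 0.927 in Het replicates 1 to 3. Orm2 was at 36.7, 139 and 3.49 CPM in WT replicates 1 to 3 and 16.97, 3.59 and 1.46 in Het replicates 1 to 3. Lcn2, Orm2 and C3 were each highest in the 3 livers that were high for Saa1, with C3 over a narrower range. This order did not hold for all of the 28 genes. Fgb, a fibrinogen chain, was at 4481 ± 1398 CPM in WT and 3534 ± 51.0 in Het, and Hpx, which binds haem, at 4315 ± 2226 and 2668 ± 811 (SD, n = 3). Of 10 negative acute-phase genes, 4 were lower, 0 passed and the median was 0.08, or -0.0015 without WT replicate 2. Alb was at 63806 ± 8573 CPM in WT and 67566 ± 9891 in Het, Gc at 7396 ± 284 and 7076 ± 393, and Ahsg at 6777 ± 525 and 7453 ± 675.

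The genes beside the Saa cluster did not share its range. In RefSeq order the cluster runs Saa3, the long non-coding RNA Gm31882, Saa4, the pseudogene Saa-ps, Saa1 and Saa2. The 5 protein-coding genes before it are Myod1, Kcnc1, Sergef, Tph1 and Saal1, and the 5 after it are Hps5, Gtf2h1, Ldha, Ldhc and Tsg101. The 6 of these 10 that were tested ranged only 1.12-fold to 1.46-fold over the livers, and 0 had an unadjusted p under 0.05. Saal1, which lies next to Saa3, was at 5.19 ± 0.416 CPM in WT and 6.04 ± 0.212 in Het, and Hps5, next to Saa2, at 24.9 ± 1.87 and 24.4 ± 0.920 (SD, n = 3). Ldha, lactate dehydrogenase A, had the widest range, from 604 to 880 CPM, with WT replicate 2 the highest.

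**Figure D5:**
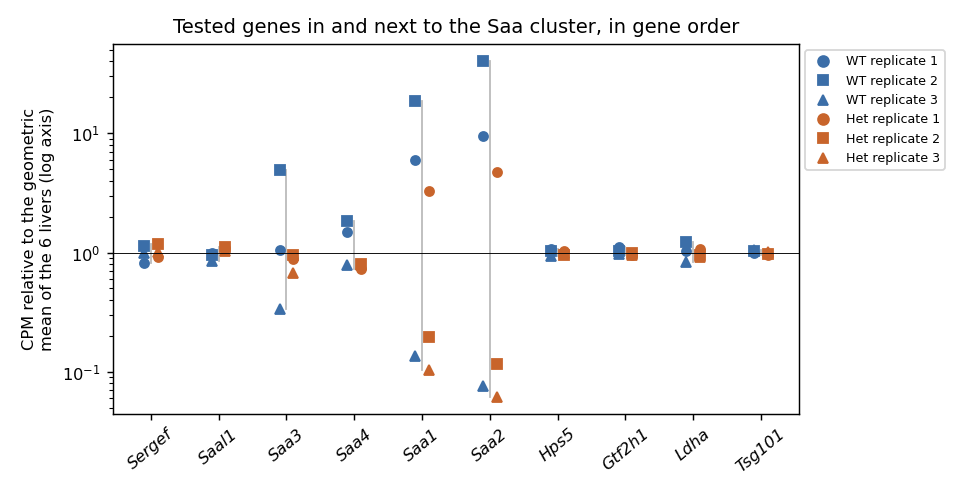
CPM of each tested gene in and next to the Saa cluster, relative to its geometric mean over the 6 livers, on a log axis and in gene order; points are livers (WT blue, Het orange, shape gives the replicate) and grey lines join the lowest and highest. The 6 neighbours range at most 1.46-fold, whereas Saa1 and Saa2 range 179-fold and 656-fold.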

How the data were processed

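Poly(A) RNA from 6 livers was taken up in Trizol and sequenced from Illumina TruSeq libraries, per the labels' protocols. The values deposited by the authors are raw counts of reads per gene. TopHat2 2.0.11, HTSeq 0.6.1, DESeq and the mm9 build are named, without their roles, in the submitters' processing notes. The counting strand, the annotation release, the read length and the treatment of reads matching several genes are not given in the sources used here. Gene symbols were matched by Ensembl ID for 32919 of 37991 IDs.

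Genotype and replicate were taken from the labels. Counts were filtered with filterByExpr, normalised with TMM (factors 0.977 to 1.02) and fitted with edgeR 4.0.16 (R 4.3.3) as a robust quasi-likelihood model of genotype over all 12631 genes left, all 4 Saa genes included. P-values were adjusted by Benjamini-Hochberg over these genes with a threshold of 0.05. CPM are TMM-normalised, and log2 CPM used a prior count of 2. Log2 ratios of counts plus 0.5 and log2 CPM were tested by exact permutation over the 6 libraries, in which no 2 libraries agreed within counting error (chi-square per degree of freedom 9.33 to 72.1). Promoters are RefSeq sequences of GRCm38.p6. Transcript and coding lengths are from the GENCODE M21 annotation of GRCm38. Neither is the build of the counts, so they describe the genes and not the counting. Pairwise identity was computed with Biopython 1.88 over aligned bases, gaps left out.

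The genes named were the 4 members, the 5 genes of highest correlation with each, the 3 most abundant members of each pathway list and those with an unadjusted p under 0.05, the 5 protein-coding genes on each side of the cluster, and Ing5; some genes that this rule names are not reported here. Lcn2, Orm2, Stat3, Il1r1 and Il6ra were named after their values were seen. The members and lists were chosen with earlier results of these data known. Alternatives were DESeq2 size factors, 2 other low-count filters, a fit without robust estimation, library sizes that leave out the 20 most abundant genes, a replicate block, DESeq2 1.42.0, limma-voom (limma 3.58.1), a threshold of 0.1, other pseudocounts, Saa1 and Saa2 added into 1 row, and each library left out. The transcript length scale and the lists with a library left out were added after seeing the data. The fits were tested on simulated counts.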

Additional observations from a re-analysis of the deposited data

How the results depend on the processing

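Under the alternatives that kept all libraries, all 4 Saa genes stayed lower in Het and none passed the adjusted test. The log2 fold changes ran from -2.80 to -2.10 for Saa1, -3.36 to -2.48 for Saa2, -1.34 to -0.59 for Saa3 and -0.84 to -0.74 for Saa4, and came to -2.98 for Saa1 and Saa2 added into 1 row. The count of genes called was 0 in most alternatives, 1 with no low-count filter and 13 with DESeq2, where Saa4 had an adjusted p of 0.112. Leaving out 1 library gave 0 to 17 called genes, 17 without WT replicate 3 and 10 without Het replicate 1. It gave -5.79 to -1.37 for Saa1, -7.54 to -1.57 for Saa2, -1.84 to 0.28 for Saa3, reversed without WT replicate 2, and -1.12 to -0.56 for Saa4, past the threshold without WT replicate 3 (edgeR adjusted p 0.023). The cause was not tested. The 3 ratios kept their sign in every alternative.

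With the replicate block, 0 genes were called and the log2 fold changes were -2.10, -2.48, -0.80 and -0.75 for Saa1 to Saa4, with an edgeR adjusted p of 0.904 for Saa4. The labels do not say what the numbers share, so same-numbered libraries were not treated as pairs. Their deviations correlated at -0.02, -0.08 and 0.22, against -0.22 to 0.25 for libraries of different numbers. These values do not settle whether the numbers mark pairs. Depth limits Saa3, with 33 to 550 counts, and Saa2 in WT replicate 3 and Het replicates 2 and 3, with 102, 175 and 87 counts, which enter its range and the Saa1 to Saa2 ratio.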
